A study of Mus musculus with 2 samples.

Results

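The genes described here are 8 small nucleolar RNA (snoRNA) host genes of the mouse, Gas5, Snhg1, Snhg3, Snhg5, Snhg6, Snhg7, Snhg8 and Snhg12. They were chosen by symbol, and all 8 were found among the 23235 gene rows of a deposited expression table. Gene expression was measured by RNA sequencing of bone marrow progenitors, lineage-depleted marrow of C57B6 mice that had been transduced with MIGR1 retroviruses for Flag-tagged Meis1 and for HA-tagged Hoxa9 fused to ER. The fusion is held in the nucleus by 4-hydroxytamoxifen (4OHT). The EtOH group had been transformed under 100 nM 4OHT with IL3, was then washed, and spent 72 h in ethanol, the solvent, so that nuclear Hoxa9-ER was lost. The 4OHT group was washed in the same way and returned to 100 nM 4OHT for 72 h. Both groups carried both retroviruses, and the sample characteristics name Hoxa9 without the ER tag that the growth protocol gives. Each group is 1 deposited sample made of biological replicates 1 and 2, and each gene has a single FPKM value in it (fragments per kilobase of transcript, scaled to the mapped fragments of the library). The levels therefore carry no SD, and the spread between replicates enters only as far as the authors' test held it. "Rose" and "fell" below mean that the q-value which the authors' deposited table gives is 0.05 or less.

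A snoRNA host gene is transcribed and spliced like an mRNA gene, but its snoRNAs lie in its introns and are cut out of them after splicing. Box C/D snoRNAs guide ribose methylation of ribosomal and other RNAs, and H/ACA snoRNAs guide pseudouridylation. The spliced exons of these hosts code for little or no protein. Many host transcripts start with a terminal oligopyrimidine (TOP) sequence like that of ribosomal protein mRNAs and are degraded by nonsense-mediated decay when they are translated. Gas5 was named for its accumulation in growth-arrested cells, in which its translation and hence its decay is reduced. In blood progenitors, ribosome production is high during proliferation and falls as granulocytes mature.

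Start sites are shown first because a TOP sequence is the feature these hosts are known for. RefSeq gave 8 start sites for 7 of the genes on GRCm38.p6, and Snhg6 had no entry. Each line runs from 25 bases before the start to 25 bases from the start on, 5′ to 3′. Capitals mark the unbroken run of C and T bases that holds the first transcribed base.
Gas5 (chr1:161034576-161034625, plus strand): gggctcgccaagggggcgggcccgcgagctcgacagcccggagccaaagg
Gas5 (chr1:161035141-161035190, plus strand): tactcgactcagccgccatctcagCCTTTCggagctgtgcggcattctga
Snhg1 (chr19:8723462-8723511, plus strand): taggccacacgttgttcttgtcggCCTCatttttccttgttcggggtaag
Snhg3 (chr4:132353662-132353711, minus strand): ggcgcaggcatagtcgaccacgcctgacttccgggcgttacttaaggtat
Snhg5 (chr9:88522873-88522922, minus strand): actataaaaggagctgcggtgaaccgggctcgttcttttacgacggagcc
Snhg7 (chr2:26640220-26640269, minus strand): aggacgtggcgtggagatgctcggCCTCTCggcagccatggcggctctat
Snhg8 (chr3:123508312-123508361, minus strand): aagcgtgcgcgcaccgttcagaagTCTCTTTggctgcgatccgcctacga
Snhg12 (chr4:132308653-132308702, plus strand): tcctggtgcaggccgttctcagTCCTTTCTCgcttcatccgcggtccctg
A C at the first base followed by at least 4 more C or T bases was found at 3 of these 8 start sites, the downstream one of Gas5 and those of Snhg7 and Snhg8. Over all 32851 RefSeq start sites of the same table the share was 2.51%. It was 18.2% over the 77 start sites of ribosomal protein genes, and 30.8% (4 of 13) over those of other genes listed for their TOP mRNAs. Both groups are known for TOP sequences, so this rule, which rests on the annotated first base, leaves many of them out. A host without a match is therefore not shown to lack a TOP sequence. Snhg12 has a run of 9 that holds its annotated first base, which is a T. Snhg1 has a run of 4 there, and its longest run within 10 bases of the start is 9. The first base of Snhg3 and of Snhg5 is a G, and their longest runs lie a few bases downstream. A run of at least 5 within 10 bases of the start was found for all 7 genes, but also at 45.9% of all start sites. The letters TATA, searched on the transcribed strand between 45 and 16 bases before the start after these sequences had been seen, were found at 6 of the 8 sites, against 7.12% of all start sites. The longer word TATAAA, searched on both strands of the whole window of 250 bases before and 50 after the start, was found at 5 of 8 sites and 13.6% of all sites. CACGTG was found at 0 of 8 sites and 7.15% of all, and TGACGTCA at the downstream Gas5 site and 1.79% of all. These matches describe letters and not binding.

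The snoRNAs that the hosts carry are the other shared feature. RefSeq placed 28 snoRNA genes inside the 8 hosts, 8 each in Gas5 and Snhg1, 4 in Snhg12, 2 each in Snhg3, Snhg5 and Snhg7, and 1 each in Snhg6 and Snhg8. By symbol, 4 are box C/D and 8 are H/ACA snoRNAs, and the rest have no snoRNA symbol there. The following 4, from GENCODE M21 on GRCm38, lie in hosts whose rows are described below. In Snord47 of Gas5 and Snord87 of Snhg6, capitals mark the words TGATGA and CTGA, the usual letters of C and D boxes. They are matches of letters, and whether the boxes lie exactly there was not tested.
Snord47 (chr1:161038082-161038158, plus strand): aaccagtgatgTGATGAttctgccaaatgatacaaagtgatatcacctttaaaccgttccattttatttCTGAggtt
Snord87 (chr1:9942463-9942549, minus strand): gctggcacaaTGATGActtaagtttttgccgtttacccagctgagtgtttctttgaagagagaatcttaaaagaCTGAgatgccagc
Both words in that order occur on the transcribed strand of 24% of the 1507 mouse snoRNA sequences of that release. In Snora17 and Snora43, both of Snhg7, capitals mark the ACA near the 3′ end.
Snora17 (chr2:26639190-26639321, minus strand): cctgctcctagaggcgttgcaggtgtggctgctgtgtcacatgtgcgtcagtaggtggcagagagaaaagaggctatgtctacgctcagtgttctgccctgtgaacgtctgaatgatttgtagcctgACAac
Snora43 (chr2:26637847-26637985, minus strand): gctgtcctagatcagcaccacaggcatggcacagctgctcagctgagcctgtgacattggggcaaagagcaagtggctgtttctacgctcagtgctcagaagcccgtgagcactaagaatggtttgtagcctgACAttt
An ACA in the last 10 bases occurs in 47.4% of the same sequences.

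All 8 hosts were expressed in both conditions and all 8 were tested by the authors. They ranged between 17.4 and 138 FPKM in EtOH cells and between 10.5 and 161 FPKM in 4OHT cells. Their median level was 38.8 FPKM in EtOH cells and 39.5 FPKM in 4OHT cells, against 10.9 and 11.0 FPKM over all 11865 tested genes. Summed, the hosts held 465 FPKM in EtOH cells and 486 FPKM in 4OHT cells, a ratio of 0.956. They made up 0.0785% of the FPKM sum in EtOH cells and 0.0892% in 4OHT cells.

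**Figure D1:**
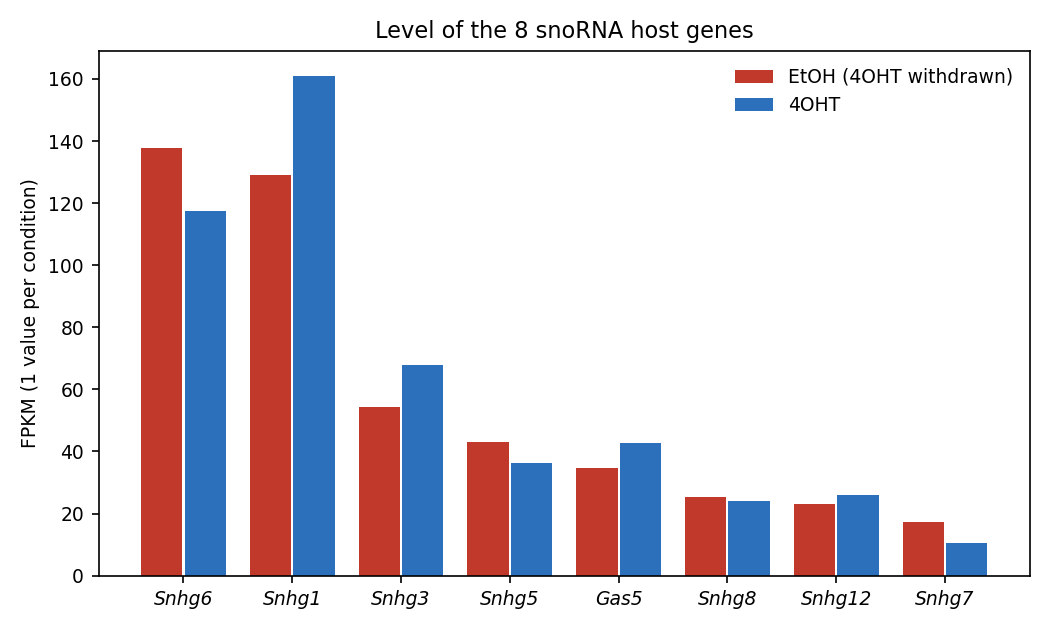
Bars give the FPKM of each host gene, with EtOH cells in red and 4OHT cells in blue, 1 value per condition and no error, ordered by the level in EtOH cells. Snhg6 and Snhg1 stand above the other genes in both conditions, at 138 and 129 FPKM in EtOH cells and at 117 and 161 FPKM in 4OHT cells.

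Of the 8 hosts 1 passed the test. Snhg7 rose and 0 hosts fell. Over all tested genes 12.0% rose and 10.5% fell, 22.5% in all. Among the 4609 tested genes with a mean FPKM in the range of these hosts 11.8% rose and 11.3% fell, 23.1% in all. A single riser among 8 genes is close to these shares, and the count is no result about the hosts. By sign alone, 4 were higher and 4 lower in EtOH. The median change, as log2((FPKM EtOH + 1)/(FPKM 4OHT + 1)), was -0.044, with a range of -0.32 to 0.68, and it became 0.019 when EtOH was scaled to a median change of 0 and -0.16 when the FPKM sums were made equal. Over all tested genes it was -0.052, with quartiles of -0.25 and 0.18.

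Markers of mature granulocytes rose in the same comparison. All 8 neutrophil markers listed rose, with a summed level of 16231 FPKM in EtOH cells and 127 FPKM in 4OHT cells, and of 7 progenitor markers 4 fell and 1 rose, with sums of 365 FPKM in EtOH cells and 556 FPKM in 4OHT cells. All 3 eosinophil markers rose, with sums of 4667 FPKM in EtOH cells and 126 FPKM in 4OHT cells, and so did all 4 basophil and mast cell markers, with sums of 4610 FPKM in EtOH cells and 1191 FPKM in 4OHT cells. Of 5 monocyte and macrophage markers 3 rose and 1 fell, with sums of 311 FPKM in EtOH cells and 285 FPKM in 4OHT cells. The 3 megakaryocyte markers summed to 91.3 FPKM in EtOH cells and 102 FPKM in 4OHT cells, and the 4 erythroid markers to 2.33 FPKM in EtOH cells and 4.64 FPKM in 4OHT cells. Markers of T cells, B cells and of endothelial and stromal cells lay at or under 0.19 FPKM in both conditions, and 3 of 5 T cell markers were at 0 in each. FPKM is a relative scale, and in bulk RNA fewer cells of a type and less RNA per cell cannot be told apart. The part of these marker changes in the values of the hosts and of the gene lists below was not tested.

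An error for each fold was taken from the authors' p-value, read as a two-sided normal test of the log ratio, which gives a standard error and a 95% interval. How far that error holds the spread between the 2 replicates is not known here. The implied standard errors of the hosts lay between 0.15 and 0.26 on the log2 scale, with a median of 0.20. The median for tested genes of the same FPKM range was 0.16, with genes whose p-value from the authors' test was 0.9 or more left out. Genes with a deposited p-value of 0 stayed in, with an implied standard error of 0. For the 7 hosts that did not pass, the intervals ran no lower than 0.589-fold and no higher than 1.51-fold, so a change of 2-fold lay outside each of them. Smaller changes lie inside the intervals, so these genes are not shown to have stayed the same.

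Snhg7, which hosts the H/ACA snoRNAs Snora17 and Snora43, was the gene that rose. It lies on chromosome 2 at 26492696 to 26495764 (mm9). It had 17.4 FPKM in EtOH cells and 10.5 FPKM in 4OHT cells. It was the lowest of the 8 hosts in both conditions. The ratio was 1.65-fold, with an implied 95% interval of 1.16 to 2.36, and the log2 change with the pseudocount was 0.68. In the authors' deposited table p was 0.00572 and q was 0.0289, so a stricter limit of 0.01 ends the call.

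Snhg5, Snhg6 and Snhg8 were higher in EtOH cells by amounts that did not pass, and Snhg8 was lower (log2 change -0.044) when the FPKM sums of both conditions were made equal. Snhg6, host of the box C/D snoRNA Snord87, had 138 FPKM in EtOH cells and 117 FPKM in 4OHT cells, a ratio of 1.17 (interval 0.912 to 1.51). Snhg5, whose introns hold a pair of annotated snoRNAs, had 43.0 FPKM in EtOH cells and 36.2 FPKM in 4OHT cells, a ratio of 1.19 (interval 0.931 to 1.51). Snhg8, host of the H/ACA snoRNA Snora24, had 25.2 FPKM in EtOH cells and 24.0 FPKM in 4OHT cells, a ratio of 1.05 (interval 0.782 to 1.42). Their q-values in the authors' deposited table were 0.439 for Snhg6, 0.376 for Snhg5 and 0.887 for Snhg8. Snhg6 lies on chromosome 1 at 9932106 to 9934199 and Snhg5 on chromosome 9 at 88415891 to 88417735 (mm9). Snhg8 is the smallest locus of the set, with 785 bases at 123210470 to 123211254 on chromosome 3 (mm9).

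Gas5, Snhg1 and Snhg3 were lower in EtOH cells by similar amounts, and none of them passed. Gas5 had 34.7 FPKM in EtOH cells and 42.7 FPKM in 4OHT cells, a ratio of 0.813 with an interval of 0.662 to 0.999. In the authors' deposited table its unadjusted p was 0.0494 and its q 0.158. Gas5 was thus the other host with an unadjusted p-value under 0.05, and the sign of its change was opposite to that of Snhg7. Snhg1, whose snoRNAs include Snord22, known in frogs to be needed for maturation of small-subunit ribosomal RNA, had 129 FPKM in EtOH cells and 161 FPKM in 4OHT cells. That ratio was 0.802, with an interval of 0.631 to 1.02, and q = 0.203 by the authors' deposited table. Snhg3, host of Snora73a and Snora73b, had 54.2 FPKM in EtOH cells and 67.9 FPKM in 4OHT cells, a ratio of 0.799 (interval 0.589 to 1.08). Snhg12, which carries both H/ACA and box C/D snoRNAs, had 23.2 FPKM in EtOH cells and 26.0 FPKM in 4OHT cells, a ratio of 0.892 (interval 0.640 to 1.24). The q-values in the authors' deposited table were 0.346 for Snhg3 and 0.724 for Snhg12. In mm9, Gas5 lies on chromosome 1 at 162965297 to 162968668 and Snhg1 on chromosome 19 at 8797977 to 8800816. Snhg12, at 131864593 to 131866939, and Snhg3, at 131907848 to 131909601, lie near each other on chromosome 4.

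These opposite signs exchanged neighbours in the order of levels. Snhg6 stood above Snhg1 in EtOH cells by 1.07-fold, while Snhg1 stood above Snhg6 in 4OHT cells by 1.37-fold. Snhg5 stood above Gas5 in EtOH cells by 1.24-fold, and Gas5 above Snhg5 in 4OHT cells by 1.18-fold. Snhg8 and Snhg12 also changed places, with a ratio of 1.09 in each condition. Without replicate values, whether such neighbours differ in level was not tested. The distance between the highest and the lowest host was 7.91-fold in EtOH cells and 15.3-fold in 4OHT cells.

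Sequence shared with other genes was small for the hosts that could be checked. Of the 50-base words of all transcripts of a host, none occurred in another gene outside snoRNAs and miRNAs for Gas5, Snhg6, Snhg8 and Snhg12. The share was 0.351% for Snhg1, 6.01% for Snhg3, all of it with Rcc1, and 9.18% for Snhg5. Snhg7 had no transcript under that name in GENCODE M21 and was not checked, so reads shared with another gene were not measured for the host that rose.

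Other non-coding hosts, listed from knowledge of the gene family, did not pass either. The share over all tested genes was 22.5%, and whether so small a list departs from it was not tested. Of 13 listed, 11 reached 1 FPKM in either condition, and of these 0 rose and 0 fell, with 3 higher and 8 lower in EtOH and a median log2 change of -0.28. This median was -0.12 with a pseudocount of 5, -0.43 with none, and -0.19 with all 13 hosts kept. By unadjusted p-value 2 of the 11 were under 0.05, both lower in EtOH, and so was Snhg11, which lies under 1 FPKM and was higher in EtOH. Snhg15 (row Gm11974) had 22.1 FPKM in EtOH cells and 33.1 FPKM in 4OHT cells, a ratio of 0.667 (interval 0.483 to 0.922), and the authors' deposited table gives it q = 0.0601. Snhg4 had 9.77 FPKM in EtOH cells and 14.4 FPKM in 4OHT cells, a ratio of 0.679 (interval 0.490 to 0.942), and the authors' deposited table gives it q = 0.0799. Snhg16, Snhg17 and Dancr had ratios of 0.692, 0.743 and 0.673, and Snhg10, Snhg9 and Snhg14 of 0.732, 0.882 and 0.861. On the other side, Zfas1 had 84.3 FPKM in EtOH cells and 73.8 FPKM in 4OHT cells, a ratio of 1.14 (interval 0.864 to 1.51). Snhg20 and Epb41l4aos had ratios of 1.09 and 1.02. Snhg11, under 1 FPKM in both conditions, had 0.798 FPKM in EtOH cells and 0.456 FPKM in 4OHT cells, a ratio of 1.75 (interval 1.13 to 2.71). The authors' deposited table gives it p = 0.0123 and q = 0.0535. Snhg18 was listed at 0.0172 FPKM in EtOH cells and at 0 in 4OHT cells and was not tested. Snhg14 was read from the row C230091D08Rik.

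**Figure D2:**
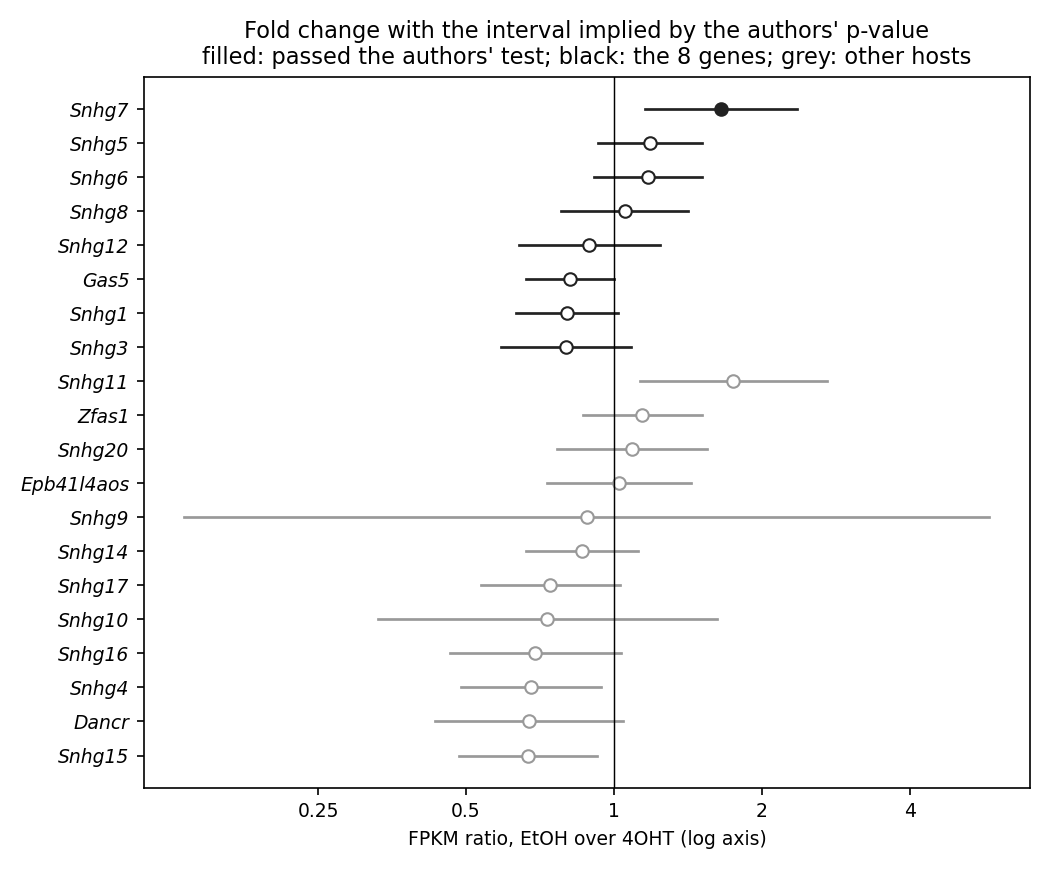
Points give the FPKM ratio of EtOH over 4OHT on a log axis, and lines the 95% interval implied by the authors' p-value, for the 8 hosts (black) and 12 other tested non-coding hosts (grey). Snhg7, at 1.65-fold, is the single filled point, and the open points did not pass.

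Genes of the proteins that bind snoRNAs fell in a larger share than the 10.5% of all tested genes. Of the 8 core proteins of snoRNA particles, 5 fell, 0 rose and 3 did not pass, with all 8 lower in EtOH and a median log2 change of -0.46. The q-values of the 5 in the authors' deposited table lay between 0.00193 and 0.0323, and all 4 proteins of box C/D particles were among them. The methyltransferase gene Fbl had 99.1 FPKM in EtOH cells and 134 FPKM in 4OHT cells. Nop56 had 83.3 FPKM in EtOH cells and 125 FPKM in 4OHT cells, and Nop58 had 64.4 FPKM in EtOH cells and 90.4 FPKM in 4OHT cells. Snu13 (row Nhp2l1), the protein that binds the box C/D fold first, had 90.7 FPKM in EtOH cells and 132 FPKM in 4OHT cells. Of the H/ACA proteins, the pseudouridine synthase gene Dkc1 fell, with 36.0 FPKM in EtOH cells and 55.0 FPKM in 4OHT cells. The log2 changes of Gar1 (-0.41), Nop10 (-0.29) and Nhp2 (-0.20) did not pass. Of 11 assembly factors 4 fell and 0 rose, with a median of -0.40, or -0.26 with a pseudocount of 5. Nolc1, a nucleolar chaperone of snoRNA particles, had 25.6 FPKM in EtOH cells and 44.2 FPKM in 4OHT cells. The helicase genes Ruvbl1 and Ruvbl2 (-0.56 and -0.49) and the H/ACA assembly factor gene Naf1 (-0.50) fell as well. That genes of ribosome production were lower in EtOH cells was known from these data when the lists were drawn up, and whether these lists differ from the hosts was not tested.

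Of 18 protein-coding snoRNA hosts, 5 fell, 0 rose and 13 did not pass, with a median of -0.31. The shares over all tested genes were 10.5% that fell and 12.0% that rose. Nop56, Nop58 and Dkc1 are both hosts and core proteins, and 4 others also stand in the list of TOP genes. Of the 11 in neither list 2 fell, with a median of -0.31. They were Ncl, the nucleolin gene, at 113 FPKM in EtOH cells and 152 FPKM in 4OHT cells, and Wdr43, a factor of small-subunit assembly, at 26.5 FPKM in EtOH cells and 37.0 FPKM in 4OHT cells. Eif4a2 was higher without passing, with a log2 change of 0.41.

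Few genes with TOP mRNAs passed, against 22.5% of all tested genes. Of 81 ribosomal protein genes of at least 1 FPKM, paralogs included, 2 rose, 0 fell and 79 did not pass, with a median of 0.069. The risers were Rplp1, a protein of the ribosomal stalk, with 4919 FPKM in EtOH cells and 3429 FPKM in 4OHT cells, and the paralog Rpl3l, with 1.24 FPKM in EtOH cells and 0.136 FPKM in 4OHT cells. The log2 change of Rps27 (-2.84) lay far below those of the others. Rps27 had 4.76 FPKM in EtOH cells and 40.2 FPKM in 4OHT cells, and did not pass (q = 0.581 in the authors' deposited table). Of 19 other TOP genes 1 fell, the elongation factor gene Eef1g (-0.51), and the median was 0.034. The medians turned to -0.049 for ribosomal proteins and -0.085 for the other TOP genes when the FPKM sums were made equal, and to 0.14 for ribosomal proteins and 0.10 for the other TOP genes when EtOH was scaled to a median change of 0. Of 15 genes of the TOR pathway, which controls translation of TOP mRNAs, 1 rose, 1 fell and 13 did not pass, with a median of -0.17. That median was -0.27 with equal FPKM sums and -0.10 with EtOH scaled to a median change of 0. Mlst8, a subunit of TOR complexes, had 12.3 FPKM in EtOH cells and 6.99 FPKM in 4OHT cells. Deptor, a TOR inhibitor, had 0.572 FPKM in EtOH cells and 6.25 FPKM in 4OHT cells. Larp1, which binds TOP sequences, did not pass, with 36.0 FPKM in EtOH cells and 45.4 FPKM in 4OHT cells. Among 16 factors of nonsense-mediated decay, the route that removes translated host transcripts, 1 rose, 0 fell and 15 had no call, with a median of -0.079. With equal FPKM sums that median was -0.19, and with EtOH scaled to a median change of 0 it was -0.0195. The riser, the helicase gene Dhx34, had 7.74 FPKM in EtOH cells and 5.43 FPKM in 4OHT cells. Upf1, the central helicase of the pathway, had 22.9 FPKM in EtOH cells and 26.9 FPKM in 4OHT cells and did not pass.

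Among long non-coding RNAs that host no snoRNA, some had larger changes than Snhg7. For their counts, the shares over all tested genes were 12.0% that rose and 10.5% that fell. Of 12 measured, 3 rose, 1 fell and 8 did not pass, with a median of 0.039, which turned to -0.053 when the FPKM sums were made equal and to 0.090 when EtOH was scaled to a median change of 0. Neat1, the scaffold RNA of paraspeckles, had 266 FPKM in EtOH cells and 113 FPKM in 4OHT cells. The nuclear RNA Malat1 had 86.1 FPKM in EtOH cells and 55.1 FPKM in 4OHT cells. The miRNA host Mir22hg (row 2210403K04Rik) had 6.03 FPKM in EtOH cells and 2.92 FPKM in 4OHT cells. Mir17hg, host of another miRNA cluster, fell to 6.88 FPKM in EtOH cells, against 10.3 FPKM in 4OHT cells.

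**Figure D3:**
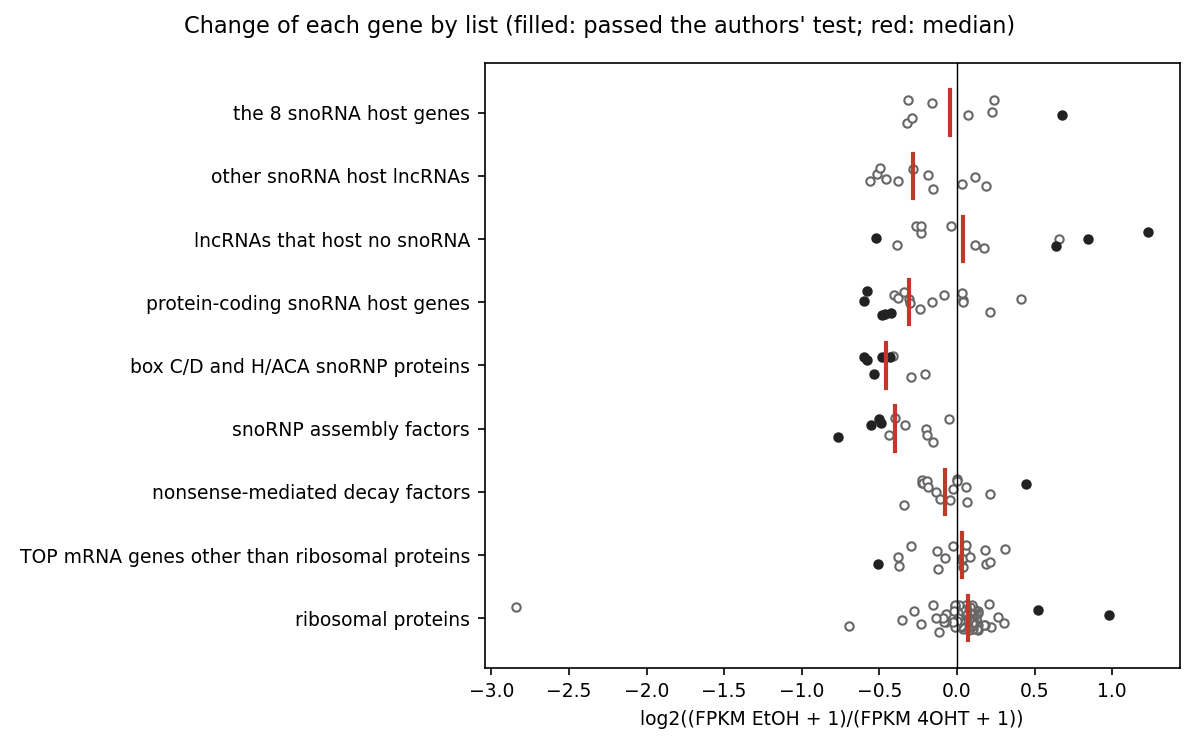
Each point is the log2((FPKM EtOH + 1)/(FPKM 4OHT + 1)) of a gene of at least 1 FPKM, by list, with filled points for genes past the authors' test and a red line at the list median. The medians run from -0.46 for the core snoRNA proteins to 0.069 for ribosomal proteins, and that of the 8 hosts is -0.044. The point far to the left is Rps27, which did not pass.

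The genes next to the hosts had no call, where 22.5% of all tested genes were called. Whether so few genes depart from that share was not tested. Within 10 kb of 7 of the hosts lay 11 other gene rows, none overlapping a host, and 0 of the 10 tested were called, although 3 had an unadjusted p-value under 0.05. Slc3a2, which encodes the heavy chain of amino acid transporters, lies 117 bases from Snhg1 and had 169 FPKM in EtOH cells and 154 FPKM in 4OHT cells. Its sign was opposite to that of Snhg1. The neighbours with an unadjusted p-value under 0.05 were all lower in EtOH. Wdr74, a ribosome assembly gene near Snhg1, had 24.6 FPKM in EtOH cells and 33.9 FPKM in 4OHT cells, and q = 0.051 by the authors' deposited table. Rcc1, the exchange factor of the GTPase Ran, and Phactr4, on either side of Snhg3, had ratios of 0.763 and 0.765, close to the 0.799 of Snhg3. Next to Snhg12, Trnau1ap had a ratio of 0.816, with 20.5 FPKM in EtOH cells and 25.1 FPKM in 4OHT cells, and Rab42-ps lay under 1 FPKM in both conditions. Zbtb37, beside Gas5, had a ratio of 0.944. Fam69b, which lies 678 bases from Snhg7, had 22.6 FPKM in EtOH cells and 22.5 FPKM in 4OHT cells. Prss12 beside Snhg8 was listed at 0 in both conditions, and 6030422M02Rik beside Snhg6 lay under 1 FPKM.

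Rows for snoRNAs themselves gave values that the authors' test could not separate. The table held 10 such rows inside 6 of the hosts. Of the 8 tested, 0 were called, with q-values between 0.428 and 0.982 in the authors' deposited table and 0 unadjusted p-values under 0.05. Snord47, printed above, had 622 FPKM in EtOH cells and 1075 FPKM in 4OHT cells, over 10 times the FPKM of its host Gas5 in each. FPKM divides by length, so few fragments can give a high value for a short gene. Snord47 has 77 bases in GENCODE M21 and 65 in RefSeq, and the length behind its deposited value is not known here. Levels of snoRNA rows and of hosts are therefore not comparable. Snord87 had 316 FPKM in EtOH cells and 202 FPKM in 4OHT cells, and Snord22 had 241 FPKM in EtOH cells and 336 FPKM in 4OHT cells. In the locus of Snhg7, Snora17 had 45.04 FPKM in EtOH cells and 41.8 FPKM in 4OHT cells. Snora43 had 40.0 FPKM in EtOH cells and 57.5 FPKM in 4OHT cells. Their ratios, 1.08 and 0.696, lay on either side of 1, while their host rose 1.65-fold. Of the snoRNAs of Snhg12, Snora44 had 26.5 FPKM in EtOH cells and 9.80 FPKM in 4OHT cells, and Snora16a had 2.88 FPKM in EtOH cells and 7.73 FPKM in 4OHT cells. Snora61 was listed at 0 in EtOH cells and at 441 FPKM in 4OHT cells and still did not pass. Snora24, Snord99 and the miRNA row Mir5117 in Gas5 were listed at 0 in both conditions and not tested.

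Over all loci, 81 snoRNA rows were tested, and the share called was 0%, against 22.5% of all tested genes. Of their unadjusted p-values, 0 were under 0.05. By sign 31 were higher and 50 lower in EtOH, and 33 differed at least 2-fold or were listed at 0 in 1 condition. Where a snoRNA lies inside an intron of a host, mature snoRNA and unspliced host RNA cannot be told apart in its row. Only the 10 rows described above were placed in a host locus here.

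**Figure D4:**
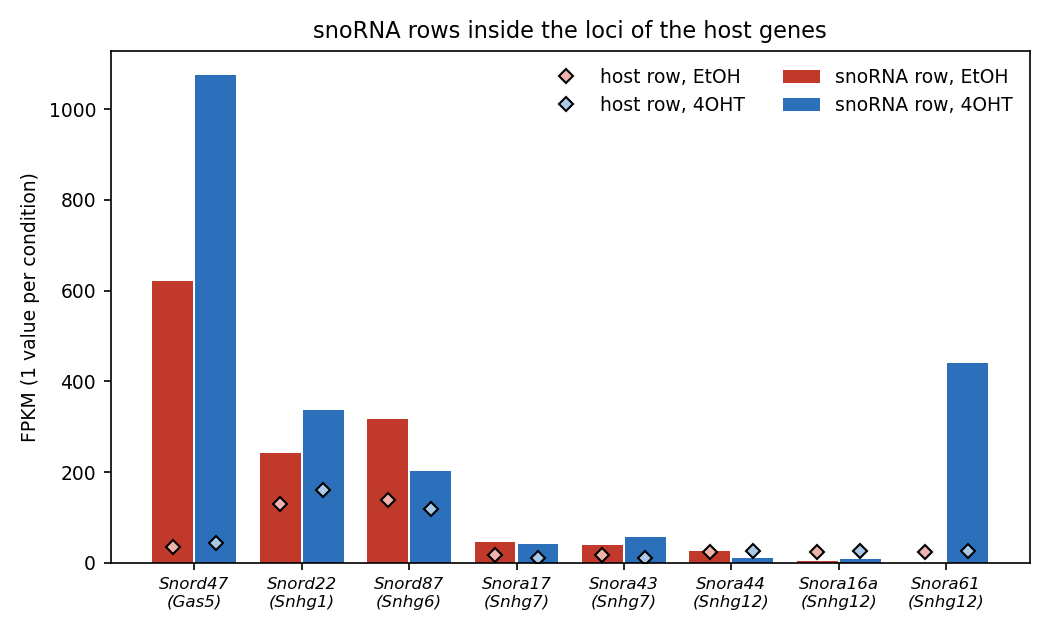
Bars give the FPKM of the 8 tested snoRNA rows inside host loci (red for EtOH cells, blue for 4OHT cells), and diamonds the FPKM of the host named under each. Heights of bars and diamonds are not comparable, as FPKM divides by length. Snord47 is the highest in both conditions, at 622 FPKM in EtOH cells and 1075 FPKM in 4OHT cells, and Snora61 is at 0 in EtOH cells.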

How the data were processed

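RNA sequencing of EtOH and 4OHT cells was deposited as 1 table. Per the submitters' processing notes, Cuffdiff 2.0.2, CASAVA 1.8.2 and Bowtie2 2.0.0.7 were used on mm9. Annotation and strand setting were not given in the sources used here, nor how the replicates were combined. Per the file headers, the authors gave 1 FPKM value per condition and gene, and a p-value and q-value of their comparison. A Benjamini-Hochberg adjustment over the 11865 tested rows gave the deposited q-values to within 1.7e-06. Read totals are not given by FPKM, so the depth is unknown and no counting interval is given. Locus starts were counted from 1.

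Log2 changes used a pseudocount of 1, and a list member was kept where either condition reached 1 FPKM. Of 248 list entries 246 had a row, 20 of them under an older symbol in RefSeq. The genes named are the hosts, rows within 10 kb, other non-coding hosts, snoRNA rows in the hosts, core snoRNA proteins and up to 4 called genes per list with the largest change, and Upf1, Larp1, Eif4a2, Rplp1, Rpl3l and Rps27 were named after their values were seen. Members and lists were chosen with earlier results of these data known. Sequence words and windows were set after the sequences had been seen. The interval of a fold is the log2 ratio ± 1.96 standard errors, each being the absolute log2 ratio over the normal quantile of the authors' p-value. The q-value adjustment, the sign of a change and the interval formula were tested on simulated data, and the other steps were not. The simulated p-values were made with the same normal reading. That test therefore cannot show whether the authors' p-values follow it. Python 3.11.15, pandas 2.3.3 and SciPy 1.17.1 were used.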

Additional observations from a re-analysis of the deposited data

How the results depend on the processing

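Of 113 values recomputed under another pseudocount, scaling, filter or call rule, 105 were classed as same, 6 changed sign and 2 counts were weaker. A single gene was classed by sign alone, and a list median also by a shift under its genes' median implied standard error. For the lists, that standard error left out genes whose p-value from the authors' test was 0.9 or more. Several list medians classed as same moved by over 1.5 times. The sign of a single gene cannot change with the pseudocount, and a filter that removed no gene leaves its median unchanged. The 105 therefore include values that could not change, and the count is no measure of robustness. When the FPKM sums of both conditions were made equal, the median of all tested genes moved to -0.15 and that of the 8 hosts to -0.16, the change of Snhg8 turned to -0.044, and the medians turned to -0.085 for TOP genes, to -0.049 for ribosomal proteins and to -0.053 for non-coding RNAs that host no snoRNA. With EtOH scaled to a median change of 0, the median of the 8 hosts turned to 0.019 and that of all tested genes to 0.0033. These medians lie near 0 and move with the scaling itself. The median of the other non-coding hosts ran between -0.43 with no pseudocount and -0.12 with a pseudocount of 5, and that of the assembly factors was -0.26 with a pseudocount of 5. At a limit of 0.01 for the q-value of the authors' deposited table, 0 hosts rose, and genes that fell numbered 793, against 1243. Genes that rose numbered 1117 at that limit, against 1429, and this count was classed as same. Adding a ratio of at least 1.5 kept Snhg7. No paired analysis was possible because each condition had 1 value per gene, and for the same reason no replicate could be left out. Depth is unknown, so low rows and snoRNA rows limit what can be said of them.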
